A study of Mus musculus with 6 samples.

Results

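The genes described here mark the nerves that run with an artery: 33 genes of Schwann cells and perivascular axons. The list was drawn up with earlier results of these data known. Its counts are therefore set beside the shares of all genes as a description and not as a test. Of the 33 genes, 32 had a probe set annotated to that gene alone. They were measured in the caudal artery, which runs the length of the tail, among 18193 genes. Each gene was read from the probe set with its highest mean over the 6 arrays. The members fall into 12 genes of myelinating Schwann cells, 10 genes of non-myelinating Schwann cells and of the Schwann lineage as a whole, and 11 genes of axons. For the myelin gene Prx, no probe set was analysed here.

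The study compared Notch3-/- mice with Notch3+/+ mice at 4 weeks of age (P28). Each sample was the total RNA of arteries pooled over several mice and hybridised to 1 Affymetrix mouse array, with 3 pools per genotype. The Notch3-/- pools held 4 mice each, and the Notch3+/+ pools held 4, 3 and 3 mice. The labels give neither the strain nor the sex, and they do not describe the targeted Notch3 allele or name any cell type in which the deletion acts.

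Peripheral nerve fibres are wrapped by Schwann cells, which arise from the neural crest. The transcription factor Sox10 keeps the whole lineage, neuregulin acts on it through Erbb3, and Egr2 switches on the myelin programme in cells that enclose 1 large axon each. Non-myelinating Schwann cells instead ensheathe bundles of thin axons, among them the sympathetic fibres that constrict arteries, and keep Ngfr, Ncam1, L1cam and Gfap. The cell bodies of perivascular axons lie in ganglia outside the vessel wall, whereas the nuclei of Schwann cells lie along the fibre.

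The genotype labels matched the targeted transcript. The brighter Notch3 probe set read 6.51, 6.44 and 5.87 in the Notch3-/- pools and 9.94, 9.95 and 10.09 in the Notch3+/+ pools on the log2 scale. Notch3 fell by 3.72 (SE 0.17) on that scale. This was a 13.2-fold lower level, and limma gave an adjusted p of 0.000529. Smooth muscle markers matched the tissue: all 8 passed the level filter, and their mean log2 level lay between 11.2 and 11.3 in every Notch3-/- pool and between 11.0 and 11.3 in every Notch3+/+ pool. Notch3-/- replicate 2 stood alone on the first principal component (45.2% of the variance), where it scored 39.5 and the remaining 5 arrays between -17.1 and 5.85.

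No nerve gene passed the test between genotypes. Of the 24 members whose mean lay above the level filter (3.83 on the log2 scale, the 40th percentile of all probe sets), 0 had an adjusted p under 0.05 in limma, where 0.322% of all 12732 genes tested did. The smallest adjusted p among the members was 0.182. At an unadjusted p under 0.05 there were 8, of which 7 were lower and 1 higher in Notch3-/- arteries. Of all genes, 4.81% were lower and 7.1% higher at that level. Of the 24 members, 20 had a difference below 0, and the median difference was -0.12, against -0.0033 over all genes tested, of which 50.5% were below 0. The unadjusted count fell short of 8 whichever pool was left out, at 5 when Notch3-/- replicate 1 was omitted, 7 for Notch3-/- replicate 2 and 3 for Notch3-/- replicate 3, and at 4 when Notch3+/+ replicate 1 was omitted, 2 for Notch3+/+ replicate 2 and 5 for Notch3+/+ replicate 3. It was 5 with the arrays centred on their medians. A fit with fewer arrays has less power for every gene. The share of all genes at an unadjusted p under 0.05 in these settings is not given here. With limma's array weights, 3 members passed (Gfra3, Ncam1 and Prph), where 3.65% of all genes passed.

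**Figure D1:**
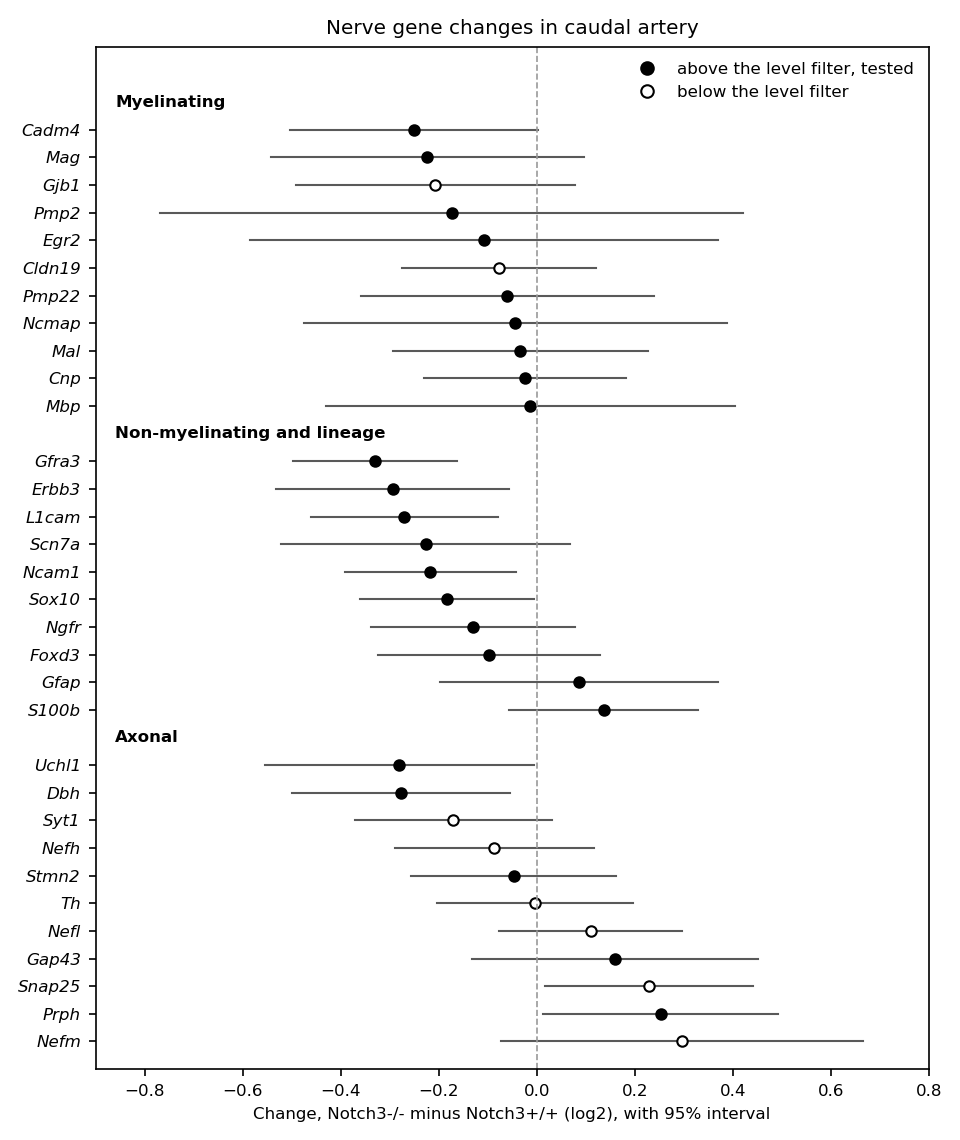
Change of each of the 32 nerve genes in caudal artery, as the mean of 3 Notch3-/- pools minus the mean of 3 Notch3+/+ pools in log2 units, with its 95% interval from limma. Filled points are the 24 genes above the level filter and open points the 8 below it. Of the 10 genes of non-myelinating Schwann cells and the lineage, 8 lie left of 0, and the lowest is Gfra3 at -0.33. All 9 myelinating genes above the filter also lie left of 0, from Cadm4 at -0.25 to Mbp at -0.01.

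The promoters of 4 members are shown because they come from genes of both Schwann cell classes and hold the motifs of the factors named above, or none of them. The windows span 300 bases, mostly before the annotated start and ending a little after it, are taken from RefSeq on build GRCm38.p6 and are printed in the direction of the gene. Motifs searched on both strands were ACAAAG for SOX factors, GTGGGCG for EGR factors and TGGGAA for RBPJ, the DNA-binding partner of Notch receptors, and capitals mark them or their reverse complement. The Mag window (chr7:30914814-30915113, minus strand) held a SOX motif, the Cadm4 window (chr7:24481773-24482072, plus strand) 2 EGR motifs, and the Scn7a window (chr2:66784861-66785160, minus strand) an EGR and an RBPJ motif. The L1cam window (chrX:73880741-73881040, minus strand) held none of them. No motif overlapped another in these 4 windows.
Mag: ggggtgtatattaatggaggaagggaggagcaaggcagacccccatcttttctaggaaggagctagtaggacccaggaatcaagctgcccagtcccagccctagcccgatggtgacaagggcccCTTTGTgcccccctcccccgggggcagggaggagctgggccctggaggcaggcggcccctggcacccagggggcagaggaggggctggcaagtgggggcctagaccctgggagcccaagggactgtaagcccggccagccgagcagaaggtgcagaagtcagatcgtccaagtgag
Cadm4: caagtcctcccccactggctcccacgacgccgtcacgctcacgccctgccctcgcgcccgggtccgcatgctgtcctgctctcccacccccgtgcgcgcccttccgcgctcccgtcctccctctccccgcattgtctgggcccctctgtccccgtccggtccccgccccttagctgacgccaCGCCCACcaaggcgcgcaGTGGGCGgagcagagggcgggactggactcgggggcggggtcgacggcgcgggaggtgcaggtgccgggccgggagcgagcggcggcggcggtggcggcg
Scn7a: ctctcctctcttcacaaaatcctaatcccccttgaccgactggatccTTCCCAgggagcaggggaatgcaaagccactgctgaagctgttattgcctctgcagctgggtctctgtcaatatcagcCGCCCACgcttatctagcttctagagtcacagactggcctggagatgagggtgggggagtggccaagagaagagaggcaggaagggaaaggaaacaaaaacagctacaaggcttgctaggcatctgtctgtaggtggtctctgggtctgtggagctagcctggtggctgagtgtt
L1cam: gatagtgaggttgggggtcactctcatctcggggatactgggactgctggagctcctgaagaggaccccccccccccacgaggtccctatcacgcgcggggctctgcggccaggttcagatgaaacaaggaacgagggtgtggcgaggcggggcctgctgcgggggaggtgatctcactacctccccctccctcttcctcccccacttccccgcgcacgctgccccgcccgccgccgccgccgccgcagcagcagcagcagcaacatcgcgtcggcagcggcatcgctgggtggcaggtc
Promoter windows were given for 21 of the 33 genes, 37 windows in all, some of which overlap. The SOX motif was in 16.2% of these windows and in 18.7% of the 32851 mouse promoter windows, the EGR motif in 16.2% and 7.97%, and the RBPJ motif in 18.9% and 25.6%. A match is a stretch of letters and says nothing of binding in these arteries.

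The myelin genes showed no clear difference between genotypes and varied widely from pool to pool. All 9 that passed the level filter had a difference below 0, from -0.25 for Cadm4 to -0.01 for Mbp, with a median of -0.06. None had an unadjusted p under 0.05 or pools that did not overlap. The spread between pools of 1 genotype was wide, with a median SD of 0.21 in Notch3-/- and 0.20 in Notch3+/+ pools, against 0.12 and 0.09 over all genes tested.

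Mbp, which encodes a protein that compacts the cytoplasmic faces of myelin, read 10.76, 10.19 and 10.61 in the Notch3-/- pools and 10.64, 10.72 and 10.24 in the Notch3+/+ pools. Its difference was -0.01 (SE 0.18), with a 95% interval from -0.43 to 0.40 and an adjusted p of 0.982 from limma. The lowest pool of each genotype set the range, and the groups overlapped throughout. Its 8 probe sets gave differences from -0.20 to 0.17, 6 of them below 0. Mbp is also made by oligodendrocytes of the central nervous system, and of 7 markers of that cell type, 5 lay below the level filter (Olig1, Olig2, Mog, Mobp and Nkx6-2). The 2 above it were Tspan2, with 9.65 to 9.77 over the Notch3-/- pools against 9.73 to 9.98 over the Notch3+/+ pools, and Opalin, with 3.85 to 4.27 over the Notch3-/- pools against 4.07 to 4.36 over the Notch3+/+ pools. Their part in the Mbp values was not tested.

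Pmp2, the fatty acid-binding protein of peripheral myelin, moved with the same pools and more widely. It read 7.83, 6.76 and 7.44 in Notch3-/- and 7.57, 7.70 and 7.28 in Notch3+/+ pools, a difference of -0.17 (SE 0.25). Pmp22, a membrane protein of compact myelin that fibroblasts also make, read 11.29, 10.90 and 11.30 in Notch3-/- and 11.16, 11.36 and 11.15 in Notch3+/+ pools, a difference of -0.06 (SE 0.13). In both genes Notch3-/- replicate 2 was the lowest of the 6 pools, and the other 5 pools overlapped.

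Cadm4, an adhesion molecule by which Schwann cells hold the axon, came nearest to a difference among the myelin genes. It read 7.09, 6.98 and 7.11 in Notch3-/- and 7.34, 7.48 and 7.11 in Notch3+/+ pools, a difference of -0.25 (SE 0.11) with an adjusted p of 0.450 from limma. One Notch3+/+ pool equalled the highest Notch3-/- pool, so the groups met at 7.11. Mag, an adhesion protein of the innermost myelin layer, had a difference of -0.22 (SE 0.14), with 4.81, 4.34 and 4.70 in Notch3-/- and 4.70, 4.97 and 4.85 in Notch3+/+ pools. Without Notch3-/- replicate 2, the lowest of the 6 pools, the Mag difference was -0.085. The Mag and Cadm4 promoters are among those printed above.

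The remaining myelin genes lay closer to 0. Egr2, the transcription factor of myelination had a difference of -0.11 (SE 0.20), and the Notch3+/+ pools alone spanned 4.27 to 5.02. Ncmap, a protein of non-compact myelin, differed by -0.04 (SE 0.18), Mal, a raft-associated myelin proteolipid, by -0.03 (SE 0.11) and Cnp, a phosphodiesterase of the myelin sheath, by -0.02 (SE 0.09). Gjb1, the gap junction protein connexin 32, and Cldn19, a tight junction protein of the sheath, lay below the level filter. Gjb1 read 3.62, 3.22 and 3.65 in Notch3-/- and 3.75, 3.74 and 3.62 in Notch3+/+ pools. Cldn19 was at 3.27 in 5 of the 6 pools and at 3.04 in Notch3-/- replicate 2.

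The myelin genes varied in parallel across pools. Notch3-/- replicate 2 was the lowest pool of its genotype for 7 of the 9 genes, where it was the lowest for 36.9% of all genes. Notch3+/+ replicate 3 was the lowest of its genotype for 8 of the 9, against 32% of all genes, and Notch3+/+ replicate 2 the highest for 7 of the 9, against 28.4% of all genes. The median deviation of the class from the gene means spanned -0.22 to 0.10 over the Notch3-/- pools, against -0.15 to 0.23 over the Notch3+/+ pools. Without Notch3-/- replicate 2 the median difference of the class was 0.0067, and without Notch3+/+ replicate 3 it was -0.22. The skeletal muscle markers, of which 16 of 17 passed the level filter, were also lowest in Notch3-/- replicate 2 for 14 of 16 genes and had their lowest Notch3+/+ values in replicate 3 for 11 of 16. The highest Notch3-/- pool differed, being replicate 3 for 15 of 16 muscle markers and replicate 1 for 7 of the 9 myelin genes. The mean log2 level of the muscle markers spanned 5.83 to 6.70 over the Notch3-/- pools, against 6.35 to 6.62 over the Notch3+/+ pools, and their part in the myelin values was not tested.

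**Figure D2:**
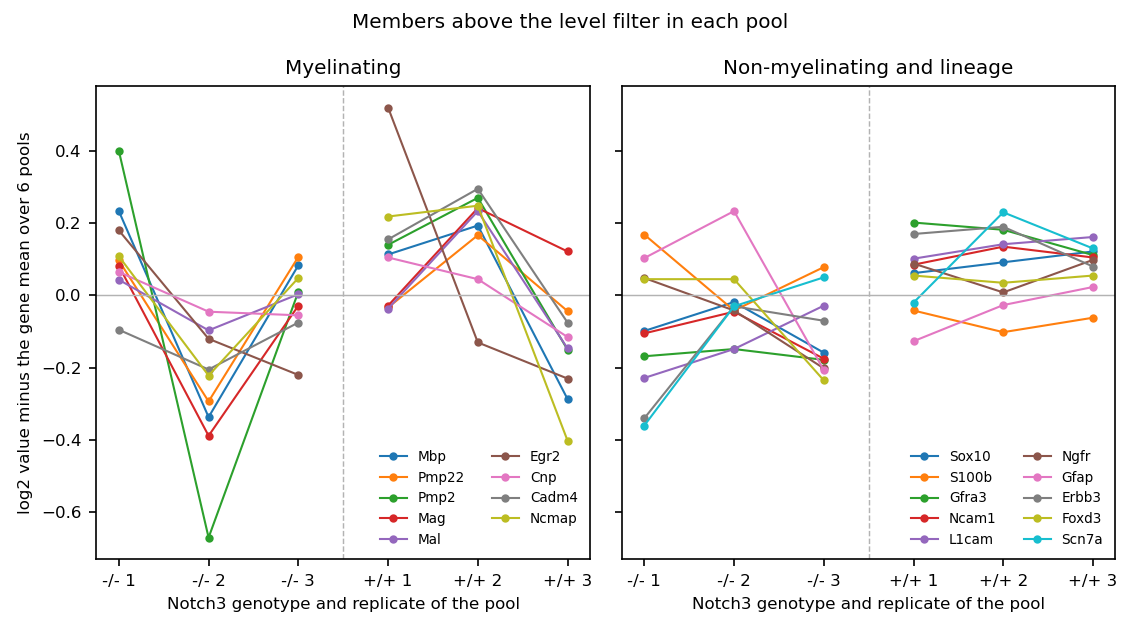
Values of the 9 myelinating genes (left) and the 10 non-myelinating and lineage genes (right) above the level filter in each pool, as the log2 value minus the mean of the gene over 6 pools, with Notch3-/- pools left of the dashed line and Notch3+/+ pools right of it. Lines only join the values of 1 gene, since replicates have no order. Myelin genes dip together in Notch3-/- replicate 2, whereas most genes on the right lie below 0 in Notch3-/- and above 0 in Notch3+/+ pools.

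The genes of non-myelinating Schwann cells and of the lineage had mostly lower values in Notch3-/- arteries, with small differences. The median SD of the class was 0.12 over the Notch3-/- pools, the same as for all genes to 2 decimals, and 0.04 over the Notch3+/+ pools, against 0.09 for all genes. All 10 passed the level filter, 8 had a difference below 0, and the median difference was -0.20. None passed over all genes in limma. Of the 10, 5 had an unadjusted p under 0.05, all lower in Notch3-/-, and in the same 5 every Notch3-/- pool lay below every Notch3+/+ pool, which was so for 7.88% of all genes. The count of 5 was 3, 6 and 3 when Notch3-/- replicate 1, 2 or 3 was omitted, and 3, 2 and 4 when Notch3+/+ replicate 1, 2 or 3 was omitted. A fit with fewer arrays has less power for every gene, and the share of all genes in those fits is not given here. This class count was 3 with arrays centred on their medians and 8 with array weights. The share of all genes at an unadjusted p under 0.05 in these settings is not given here either. Array weights also raised the share of all genes with an adjusted p under 0.05 in limma, from 0.322% to 3.65%. In bulk tissue, fewer cells of a type and less RNA per cell cannot be told apart.

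Gfra3, the receptor subunit for the neurotrophic factor artemin, found on Schwann cells and on sensory and sympathetic neurons, had the smallest p of all members. It read 6.84, 6.86 and 6.83 in the Notch3-/- pools and 7.21, 7.19 and 7.12 in the Notch3+/+ pools. The difference was -0.33 (SE 0.07), a 1.26-fold lower level in Notch3-/- (adjusted p = 0.182, limma). The Notch3-/- pools lay within 0.03 of one another and the groups were apart. With array weights its adjusted p was 0.0211.

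L1cam, an adhesion molecule of non-myelinating Schwann cells and of axons, read 6.61, 6.69 and 6.81 in Notch3-/- and 6.94, 6.98 and 7 in Notch3+/+ pools. The difference was -0.27 (SE 0.08), a 1.21-fold lower level (adjusted p = 0.302, limma). Its groups were apart, and its second probe set, below the level filter, differed by -0.30 with groups that overlapped.

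Ncam1, the neural cell adhesion molecule, which myelinating Schwann cells shut off, read 5.80, 5.86 and 5.73 in Notch3-/- and 5.99, 6.04 and 6.01 in Notch3+/+ pools. The difference was -0.22 (SE 0.07), with an adjusted p of 0.359 from limma and of 0.0441 with array weights. The groups were apart on this probe set, and all 3 of its tested probe sets were below 0, while of its 4 probe sets below the filter 3 were above 0.

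Erbb3, the neuregulin receptor on which Schwann cells depend, read 6.01, 6.32 and 6.28 in Notch3-/- and 6.52, 6.54 and 6.43 in Notch3+/+ pools. The difference was -0.29 (SE 0.10), a 1.23-fold lower level (adjusted p = 0.362, limma). The groups were apart, with Notch3-/- replicate 1 well under the rest.

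Sox10, the transcription factor that defines the Schwann lineage, read 6.54, 6.62 and 6.48 in Notch3-/- and 6.70, 6.73 and 6.76 in Notch3+/+ pools. The difference was -0.18 (SE 0.08), a 1.14-fold lower level (adjusted p = 0.428, limma). The groups were apart. Of the other 2 probe sets, 1 differed by -0.21 with groups apart, and 1 below the level filter by -0.24 with groups that overlapped.

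**Figure D3:**
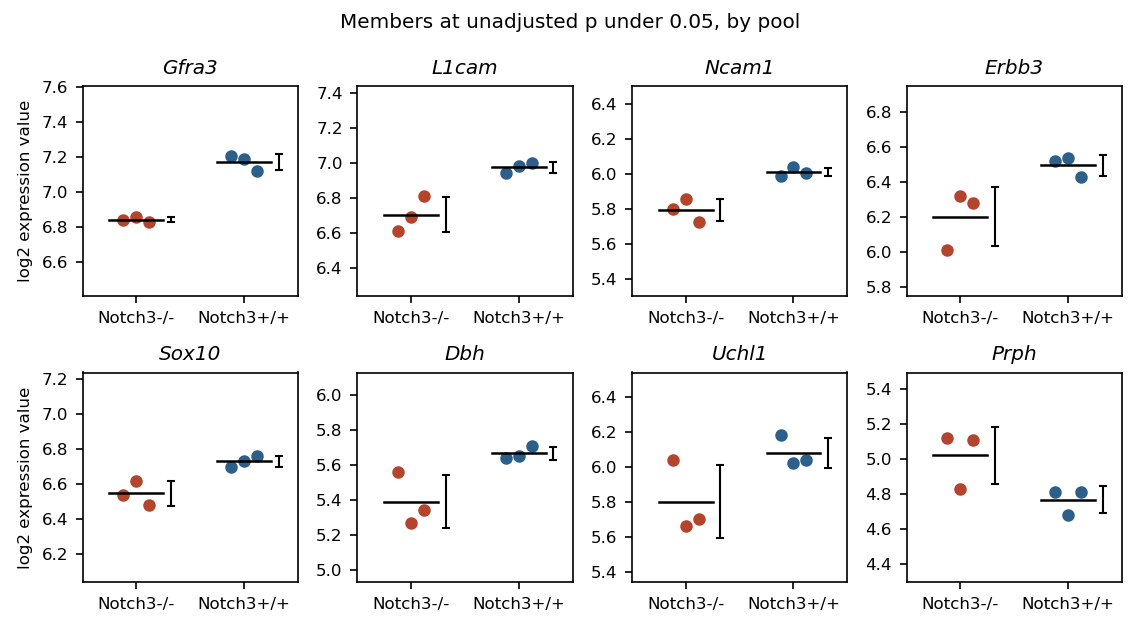
Log2 expression values of the 8 nerve genes with an unadjusted p under 0.05 in each of 3 Notch3-/- pools (red) and 3 Notch3+/+ pools (blue), on axes of equal span. Horizontal lines are means and the bars beside them 1 SD. The genes were picked by p in these same pools, so little overlap between genotypes was likely. The genotypes do not overlap in 7 of the 8 genes, 6 of them lower in Notch3-/- and Prph higher, out of 24 members tested. Over all genes tested, 7.88% were apart and lower and 9.46% apart and higher. In Uchl1 the highest Notch3-/- pool reached 6.04.

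The other 5 genes of the class were less clear. Scn7a, a sodium-sensing channel of non-myelinating Schwann cells, whose promoter is printed above, read 7.17, 7.50 and 7.58 in Notch3-/- and 7.51, 7.76 and 7.66 in Notch3+/+ pools. The difference was -0.23 (SE 0.13), and its 3 probe sets differed by -0.40 to -0.13. Ngfr, the low-affinity neurotrophin receptor, differed by -0.13 (SE 0.09) and Foxd3, a transcription factor of the neural crest, by -0.10 (SE 0.10). With 1 pool omitted these became -0.10 for Scn7a (Notch3-/- replicate 1), -0.062 for Ngfr and -0.0033 for Foxd3 (both Notch3-/- replicate 3). S100b, a calcium-binding protein of Schwann cells that adipocytes also make, went the other way, with 8.01, 7.80 and 7.92 in Notch3-/- and 7.80, 7.74 and 7.78 in Notch3+/+ pools, a difference of 0.14 (SE 0.08). Gfap, a glial intermediate filament protein, differed by 0.09 (SE 0.12).

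Measured over every probe set rather than 1 per gene, the same order of the classes was seen. Of 17 tested probe sets of the non-myelinating and lineage genes, 14 were below 0, 7 had pools apart with Notch3-/- lower, and the median was -0.18. The 7 were those of the 5 genes above, another of Sox10 and a dimmer one of Scn7a, so they repeat readings of the same pools. The share over all probe sets is not given here, and at 1 probe set per gene it was 7.88% of all genes. Of 19 tested probe sets of the myelin genes, 17 were below 0, 0 had pools apart, and the median was -0.09.

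The class median per pool separated the genotypes for the non-myelinating and lineage genes, with -0.17 to -0.04 over the Notch3-/- pools, against 0.07 to 0.11 over the Notch3+/+ pools. With 1 pool omitted, the median difference stayed between -0.23 (Notch3-/- replicate 2 omitted) and -0.17 (Notch3-/- replicate 3 omitted). The separation by pool was not particular to this class. The median of the 20 other myelin and Schwann cell genes described below spanned -0.077 to -0.025 over the Notch3-/- pools, against 0.028 to 0.06 over the Notch3+/+ pools. Melanocytes share Sox10 and Erbb3 with Schwann cells, and 3 of the 4 melanocyte markers above the level filter, of 8 listed, had a difference above 0. Their mean log2 level spanned 5.27 to 5.43 over the Notch3-/- pools, against 4.92 to 5.15 over the Notch3+/+ pools, while Tyr and Tyrp1 lay below the filter, and their part in these values was not tested.

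Axonal genes gave few usable values, with no shared direction. Of 11, 6 lay below the level filter: the 3 neurofilament genes Nefl, Nefm and Nefh, the catecholamine-synthesis gene Th, and the synaptic vesicle release genes Snap25 and Syt1. Th, which encodes tyrosine hydroxylase, the first enzyme of noradrenaline synthesis, read 3.58, 3.62 and 3.47 in Notch3-/- and 3.66, 3.44 and 3.58 in Notch3+/+ pools, with no separation. Nefl, Nefm and Nefh read between 1.86 and 3.15 in all 6 pools. Snap25 read 2.50, 2.45 and 2.34 in Notch3-/- and 2.35, 2.12 and 2.13 in Notch3+/+ pools, and Syt1 read 3.44, 3.23 and 3.23 in Notch3-/- and 3.44, 3.54 and 3.43 in Notch3+/+ pools, so that the genotypes overlapped in both.

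The 5 axonal genes tested had a median difference of -0.05, with 3 below 0, and 0 passed in limma. Dbh, dopamine beta-hydroxylase, which makes noradrenaline from dopamine in sympathetic vesicles, read 5.56, 5.27 and 5.34 in Notch3-/- and 5.64, 5.65 and 5.71 in Notch3+/+ pools. The difference was -0.28 (SE 0.10), a 1.21-fold lower level (adjusted p = 0.357, limma). The groups were apart on this probe set only. Its other 2 probe sets differed by -0.14 and -0.10, both with groups that overlapped, and the dimmer of them lay below the level filter.

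Uchl1, a neuronal ubiquitin hydrolase used as a general nerve fibre marker, read 6.04, 5.66 and 5.70 in Notch3-/- and 6.18, 6.02 and 6.04 in Notch3+/+ pools. The difference was -0.28 (SE 0.12), with an adjusted p of 0.435 from limma. Notch3-/- replicate 1 lay within the Notch3+/+ range, so the groups overlapped.

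Prph, peripherin, an intermediate filament protein of peripheral neurons, had higher values in Notch3-/- pools, with 5.12, 4.83 and 5.11 in Notch3-/- and 4.81, 4.68 and 4.81 in Notch3+/+ pools. The difference was 0.25 (SE 0.10), a 1.19-fold higher level in Notch3-/- (adjusted p = 0.417, limma), and the adjusted p was 0.0379 with array weights. The groups were apart by 0.02, which was so upwards for 9.46% of all genes. Its probe sets disagreed, since its other 2 tested ones differed by 0.07 and -0.05 and the one below the filter by -0.35.

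The growth-associated genes showed no clear difference. Gap43, a protein of growing axons that non-myelinating Schwann cells also make, read 4.74, 5.09 and 4.97 in Notch3-/- and 4.97, 4.71 and 4.64 in Notch3+/+ pools, a difference of 0.16 (SE 0.13). Stmn2, a microtubule regulator of growing axons, differed by -0.05 (SE 0.09) on 1 probe set and by 0.20 on the other, with groups that overlapped on both.

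Further genes of the same biology were examined in the same fit, and 0 passed in limma in any of the 3 lists below. These lists too were drawn up with earlier results of these data known, so their shares are descriptive. Of 20 other myelin and Schwann cell genes tested, 16 were below 0, with a median of -0.13. At an unadjusted p under 0.05 there were 3 lower and 2 higher. These were 15% and 10% of the list, against 4.81% and 7.1% of all genes tested. Plekhb1, a membrane-associated PH domain gene, read 7.09, 6.52 and 7.17 in Notch3-/- and 7.46, 7.6 and 7.42 in Notch3+/+ pools, a difference of -0.57 (SE 0.17) that was -0.36 without Notch3-/- replicate 2. Art3, an ADP-ribosyltransferase family gene, differed by 0.37 (SE 0.10) and Adgrg6, an adhesion receptor that Schwann cells need to begin myelination, by 0.35 (SE 0.11). Both had pools apart and Notch3-/- higher, which was so for 9.46% of all genes tested. Art3 and Adgrg6 each had 2 probe sets, and only the brighter of each is given here. The adjusted p of Plekhb1, Art3 and Adgrg6 from limma ran from 0.241 to 0.307.

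Of 11 neuregulin and neurotrophic signalling genes tested, 6 were below 0, with a median of -0.07. At an unadjusted p under 0.05 there were 3 lower and 1 higher. These were 27.3% and 9.09% of the list, against 4.81% and 7.1% of all genes tested. Ntrk2, the receptor for brain-derived neurotrophic factor, read 7.25, 7.16 and 7.21 in Notch3-/- and 7.58, 7.57 and 7.45 in Notch3+/+ pools, a difference of -0.33 (SE 0.08) with an adjusted p of 0.214 from limma and groups apart. Ntrk3, the receptor for neurotrophin 3, differed by -0.29 (SE 0.11). Ntrk2 and Ntrk3 each had 8 probe sets, and only the brightest of each is given here. Gfra4, a receptor subunit of the same family as Gfra3, differed by -0.26 (SE 0.10), with pools that overlapped. The family went both ways. Gfra2 differed by 0.32 (SE 0.12), with pools apart and Notch3-/- higher, which was so for 9.46% of all genes tested. Gfra1 differed by 0.29 (SE 0.15), with pools that overlapped. Gfra2 had 5 probe sets and Gfra1 had 3, and only the brightest of each is given here. Both genes were named after their values were seen.

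Of 12 other axonal and transmitter genes tested, 5 were below 0, with a median of 0.01. At an unadjusted p under 0.05 there were 1 lower and 2 higher. These were 8.33% and 16.7% of the list, against 4.81% and 7.1% of all genes tested. Sncg, gamma-synuclein, differed by -0.59 (SE 0.22), with 7.19, 6.33 and 7.19 in Notch3-/- and 7.42, 7.48 and 7.57 in Notch3+/+ pools, and by -0.30 without Notch3-/- replicate 2. Slc18a2, the vesicular monoamine transporter, which mast cells also make, differed by 0.66 (SE 0.27), and Scg2, a secretogranin of dense-core vesicles, by 0.54 (SE 0.23), both with groups that overlapped. Without Notch3+/+ replicate 3, their lowest pool, these differences were 0.34 for Slc18a2 and 0.31 for Scg2. The 8 mast cell markers, all above the level filter, all had differences above 0, with a mean log2 level of 6.98 to 7.52 over the Notch3-/- pools, against 6.19 to 7.13 over the Notch3+/+ pools, and their part in the Slc18a2 value was not tested.

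Marker lists of other cell types also differed between these pools. The median deviation of 12 endothelial markers spanned -0.16 to -0.02 over the Notch3-/- pools, against 0.04 to 0.26 over the Notch3+/+ pools. That of 7 adipocyte markers spanned -0.18 to -0.0050 over the Notch3-/- pools, against 0.0050 to 0.14 over the Notch3+/+ pools. That of 10 fibroblast markers spanned 0.02 to 0.16 over the Notch3-/- pools, against -0.17 to -0.04 over the Notch3+/+ pools. For 14 macrophage and leukocyte markers it spanned 0.07 to 0.46 over the Notch3-/- pools, against -0.69 to 0.09 over the Notch3+/+ pools. Their part in the lower values of the Schwann cell genes was not tested.

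**Figure D4:**
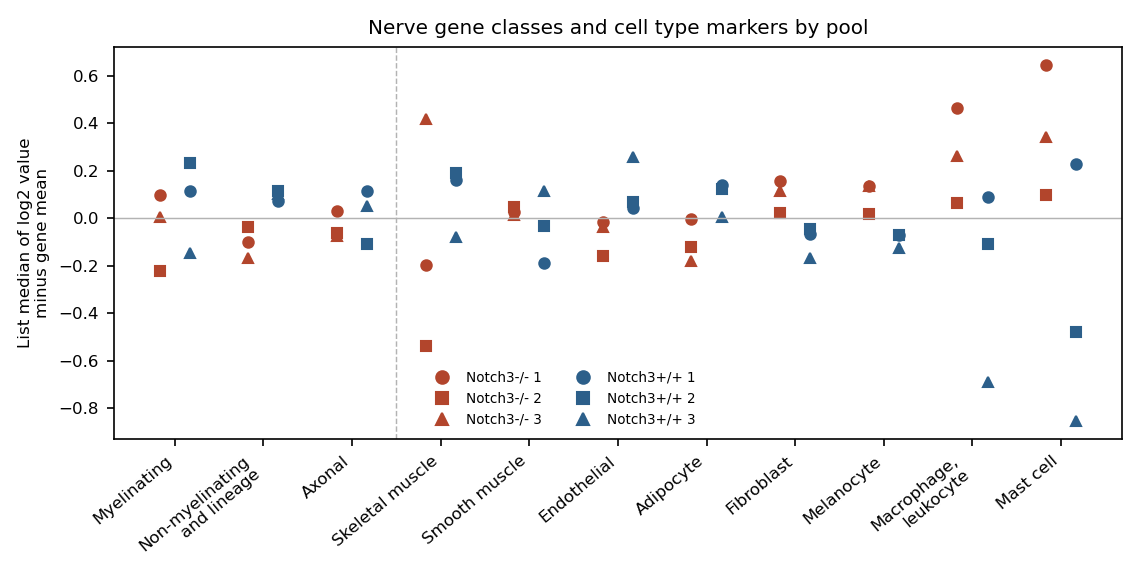
Median over each gene list of the log2 value minus the gene mean over 6 pools, for 3 Notch3-/- pools (red, left of each pair) and 3 Notch3+/+ pools (blue, right), with marker shape giving the replicate number. The nerve gene classes stand left of the dashed line and marker lists of other cell types right of it. The non-myelinating and lineage genes lie between -0.17 and -0.04 in Notch3-/- and between 0.07 and 0.11 in Notch3+/+ pools, and the myelinating genes overlap.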

How the data were processed

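The authors deposited log2 expression per probe set, which the submitters' processing notes attribute to RMA. This method corrects background, equalises the arrays' quantiles and summarises probes, which compresses differences of dim probe sets. Neither its version nor the chip definition is given in the sources used here. No detection calls were used, and the range of 1.38 to 13.38 shows the log2 scale. No batch is given. Of 45101 probe sets, 64 controls were left out, 34945 had 1 gene symbol in the platform annotation, 932 several and 9160 none. Of those with 1 symbol, 34741 matched a RefSeq gene (GRCm38.p6) and took its symbol. Probe sets with a mean below the 40th percentile were left out, which left 27027. Genotypes were compared with limma 3.58.1 in R 4.3.3 (lmFit, eBayes, genotype as the only term), with two-sided p-values adjusted by Benjamini-Hochberg over the 27027. The fit was tested on simulated arrays. Precision is limited by 3 arrays per genotype.

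The members and lists were chosen with earlier results of these data known, so gene lists are described by counts and medians and not tested. All members are named, with up to 3 genes per further list by smallest unadjusted p. Values in every pool are given for members with an unadjusted p under 0.05 or pools apart, for Mbp, Sox10 and Th, and for some others. Settings varied were the filter, the variance model, normalization, weights, blocking on replicate number, the way probe sets were summarised, the threshold and the omission of each pool. The design text calls the pools biological replicates.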

Additional observations from a re-analysis of the deposited data

How the results depend on the processing

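Of 354 recomputed member differences over 15 settings, 332 kept their direction and their side of the threshold, 3 passed and 19 changed sign. The 3 passed with array weights, which weighted Notch3-/- replicate 3 and Notch3+/+ replicate 2 most: Gfra3 (-0.35), Ncam1 (-0.28) and Prph (0.36), giving counts of 3 over all members, 2 non-myelinating and lineage and 1 axonal. The number of members with an unadjusted p under 0.05 was then 13, and 5 with arrays centred on their medians, against 8. Over all genes, 3.65% passed the adjusted threshold with array weights, against 0.322% without them. The share of all genes at an unadjusted p under 0.05 in these settings is not given here. The cause was not tested. None passed at an adjusted p under 0.1 or in any other setting. Signs changed for Mbp (0.017) and Cnp (0.0067) with arrays centred on their medians, for Gfap (-0.093) with array weights, and for Stmn2 (0.08) with all tested probe sets of a gene averaged.

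Leaving out 1 pool moved Mbp from -0.16 to 0.15, Pmp22 from -0.13 to 0.072, Pmp2 from -0.42 to 0.12, Mal from -0.12 to 0.08, Ncmap from -0.26 to 0.07, Egr2 from -0.25 to 0.13, Cnp from -0.087 to 0.023, Gfap from -0.0083 to 0.21 and Stmn2 from -0.11 to 0.0033. Without a change of sign, Cadm4 reached -0.165 without Notch3+/+ replicate 2, S100b 0.087 without Notch3-/- replicate 1 and Gap43 0.082 without Notch3-/- replicate 2. The median over all members then ran from -0.19 to -0.085, the myelin median from -0.22 to 0.0067, the non-myelinating and lineage median from -0.23 to -0.17 and the axonal median from -0.11 to 0.0033. With a filter at the 60th percentile, which tests fewer genes, the median was -0.18 over all members and -0.28 over axonal genes. Averaging probe sets gave an axonal median of 0.075 and 0 axonal genes apart and lower, and a further quantile normalization set 1 myelin gene apart and lower.

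Pools of the same replicate number deviated together at r of 0.24, 0.05 and -0.07, and Notch3-/- replicate 2 correlated best with Notch3+/+ replicate 3 (0.14), so the numbers were not taken to pair the pools. With the replicate block, 0 members passed and 7 had an unadjusted p under 0.05. Scanner files were not used here, so background correction could not be varied, and dim genes such as the neurofilament genes are limited by signal over background.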
